A study of Homo sapiens with 8 samples.

Results

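The genes described here encode the nuclear parts of the respiratory chain and of ATP synthase in MRC5 cells, a line of human diploid lung fibroblasts. They were chosen by name: every gene whose single symbol in the array annotation begins with NDUFA, NDUFB, NDUFC, NDUFS, NDUFV, UQCR, COX4 to COX8 or ATP5, together with SDHA to SDHD and CYC1. On the 12 h arrays these were 62 of 7713 named genes, each with 1 probe set: 26 complex I subunits, 2 of complex II, 7 of complex III, 13 of complex IV and 14 of ATP synthase. On the 6 h arrays they were 74 of 11963 named genes, read by 107 probe sets, and they included 5 complex I assembly factors, the pseudogene ATP5MC2P1 and the antisense RNA NDUFB2-AS1. All 62 genes of the 12 h arrays were also on the 6 h arrays. Probe sets annotated with several symbols, 1 of them a respiratory chain name, were left out (5 at 12 h and 9 at 6 h).

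One group of cells received 10 µM 8-oxoguanine, the free oxidised guanine base, and the other was mock treated with the solvent. At 12 h there were 3 arrays of 8-oxoguanine cells and 3 of mock cells, and at 6 h 1 array of each. All 8 samples were cells of the same line, grown in serum-containing medium. The labels call the 12 h replicates technical ones, numbered by RNA extract, and a p-value here reflects the spread between extracts alone, which may be technical. The 6 h arrays were of another type with more probe sets, and each time was compared with its own mock cells.

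Electrons from NADH enter the chain at complex I and those from succinate at complex II. Complex III passes them to cytochrome c, and complex IV hands them to oxygen. Complexes I, III and IV move protons across the inner mitochondrial membrane, and ATP synthase uses their return to make ATP. Complexes I, III, IV and ATP synthase also hold subunits made inside the mitochondrion, which are not among these genes. Many of the genes have processed pseudogenes elsewhere in the genome, so a probe set can also read near-identical copies.

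Promoters of respiratory chain genes are known for sites of NRF1 and of GABP, an ETS-family factor also called NRF-2. The 250 bases before the annotated start were read from RefSeq (GRCh38.p14) for 63 of the 72 protein-coding genes, in 79 windows, and searched on both strands. The NRF1 motif GCGCANGCG was in 18 of the 79 windows (22.8%), against 6.56% of all windows in the RefSeq table and 8.49% of those of coding genes. The ETS motif CCGGAAG was in 17 windows (21.5%), against 8.52% of all windows and 10.7% of coding ones. The YY1 motif AAGATGGC was in 2 windows (2.53%), against 1.36% of all and 1.38% of coding windows. The Sp motif GGGCGG was in 44 (55.7%), against 42.6% of all and 53.7% of coding windows. The letters TATAAA were in 7 (8.86%), against 10.7% of all and 9.01% of coding windows. An NRF1 or an ETS match was present for 30 genes, and 4 genes had both. A match is a description of the letters, not a measured site.

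Windows are shown for the genes to which the results return: NDUFA5, the gene that passed the test at 12 h, NDUFA6, COX8A and COX6A1. They are written 5′ to 3′ toward the start, with NRF1 and ETS matches in capitals. NDUFA5 has 3 windows in the table, 1 of which holds a match and is the one shown (chr7:123557819-123558068, minus strand), with the NRF1 match beginning 158 bases before the start. The NDUFA6 window (chr22:42090773-42091022, minus strand) holds neither match. The COX8A window (chr11:63974370-63974619, plus strand) has an ETS match 18 bases before the start, and the COX6A1 window (chr12:120437863-120438112, plus strand) has an NRF1 match at 219 and an ETS match at 16 bases.
NDUFA5: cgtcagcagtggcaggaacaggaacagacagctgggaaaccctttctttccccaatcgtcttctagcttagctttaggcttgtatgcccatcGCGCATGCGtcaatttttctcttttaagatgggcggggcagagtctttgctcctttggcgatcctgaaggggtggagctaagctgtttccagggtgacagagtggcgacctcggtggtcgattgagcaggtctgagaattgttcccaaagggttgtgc
NDUFA6: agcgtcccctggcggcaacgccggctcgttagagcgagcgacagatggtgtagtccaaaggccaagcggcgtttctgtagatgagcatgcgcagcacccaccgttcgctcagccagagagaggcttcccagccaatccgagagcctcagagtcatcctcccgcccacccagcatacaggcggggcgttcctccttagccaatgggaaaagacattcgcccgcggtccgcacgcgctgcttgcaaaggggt
COX8A: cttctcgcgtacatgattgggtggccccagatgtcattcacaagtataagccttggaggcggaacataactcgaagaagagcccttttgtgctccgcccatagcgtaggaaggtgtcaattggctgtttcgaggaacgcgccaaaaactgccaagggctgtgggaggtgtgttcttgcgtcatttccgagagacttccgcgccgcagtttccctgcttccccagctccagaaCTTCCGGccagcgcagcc
COX6A1: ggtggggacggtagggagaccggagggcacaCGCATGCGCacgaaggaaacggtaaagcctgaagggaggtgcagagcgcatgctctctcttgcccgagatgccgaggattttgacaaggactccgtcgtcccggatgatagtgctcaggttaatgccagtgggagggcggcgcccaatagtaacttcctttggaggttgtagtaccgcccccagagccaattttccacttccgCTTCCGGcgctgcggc

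At 12 h, 1 respiratory chain gene rose and none fell. NDUFA5, an accessory subunit of the matrix arm of complex I, was 1.63-fold higher in 8-oxoguanine cells than in mock cells. Of the 62 genes, 60 passed the filter on dim probe sets and were tested, and 59 of those did not pass the threshold of 0.05 on limma's Benjamini-Hochberg adjusted p. Among all probe sets tested, 13.2% passed, and among named genes 13.1% passed, 6.49% as higher and 6.64% as lower. At an unadjusted p under 0.05 there were 3 higher (5.00%) and 9 lower (15.0%) respiratory chain genes, against 14.7% and 14% of the named genes. In total RNA from whole cultures, a changed share of expressing cells and a changed amount of RNA per cell cannot be told apart.

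The values of most of these genes lay close together in both groups. The median log2 fold change over all 62 genes was -0.02, against 0.01 over all named genes, and 28 lay above 0 and 34 below. The median absolute log2 fold change was 0.12, against 0.18 over the named genes tested. A difference of under 1.2-fold was measured for 52 of the 60 genes (86.7%), against 67.0% of the named genes. The standard error had a median of 0.08 on the log2 scale, against 0.13 over the named genes. For 53 of the 60 (88.3%), the whole 95% interval of the difference lay within 1.5-fold in either direction, against 64.1% of the named genes. The 7 others were ATP5MC1, ATP5MG, NDUFA1, NDUFA5, SDHD, UQCRB and COX6A2.

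**Figure D1:**
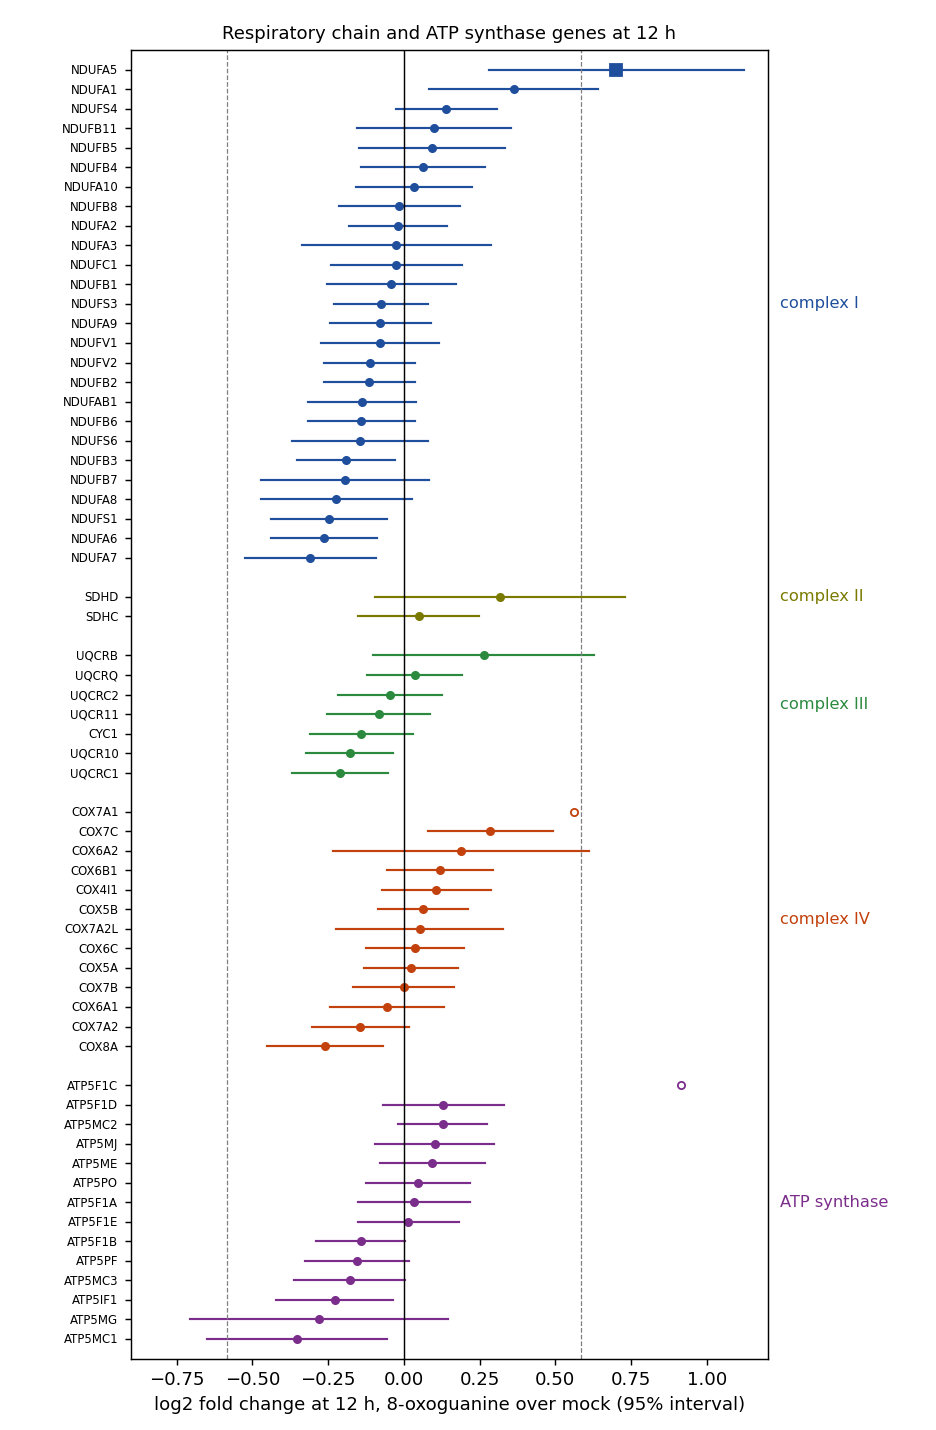
Log2 fold change at 12 h, 8-oxoguanine over mock cells, of all 62 genes by complex; bars are 95% intervals from limma (3 arrays a group), the dashed lines mark 1.5-fold, the square is the gene that passed the test and open circles are the 2 genes under the filter. NDUFA5 stands at 0.70, and the other tested genes lie between -0.35 and 0.36.

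The share of calls depended on signal. Of the named genes with a mean signal of 1000 or more, 22.5% were called at 12 h. Of the respiratory chain genes in the same range, limma called 0 of 46, with 6 at an unadjusted p under 0.05 (13.0%), against 41% of the named genes in that range. The 8-oxoguanine and mock arrays did not overlap for 5 of the 60 genes on the higher side (8.33%) and for 14 on the lower side (23.3%). The same was true of 17.2% and 16.6% of the named genes. The plot of change against signal shows the respiratory chain genes in the narrow centre of the cloud.

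**Figure D2:**
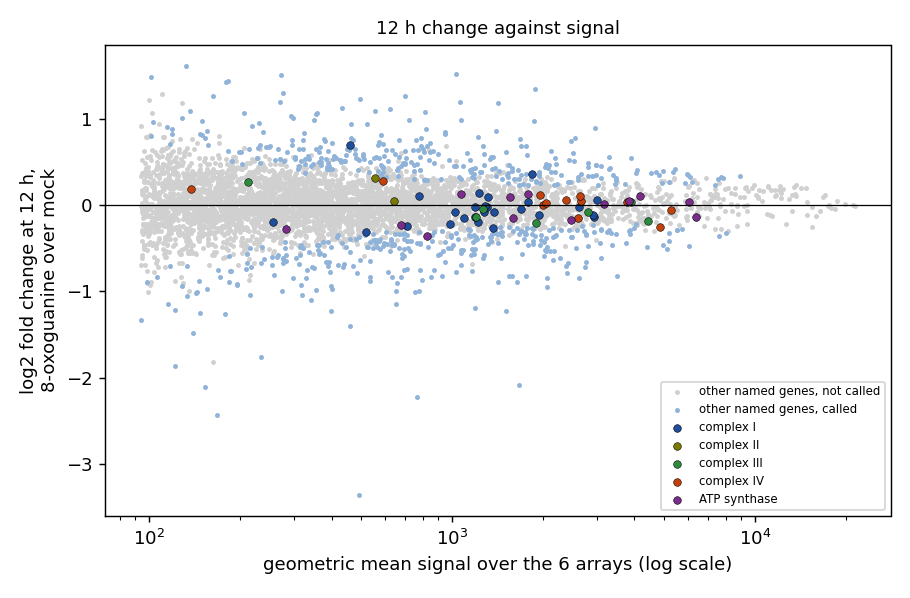
Log2 fold change at 12 h, 8-oxoguanine over mock cells, against the geometric mean signal over the 6 arrays (log scale) for every named gene tested; blue-grey points passed the test and coloured points are respiratory chain genes. Apart from NDUFA5 at 0.70, the coloured points lie between -0.35 and 0.36.

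Complex I, the NADH dehydrogenase, held the gene that passed the test. The NDUFA5 signal was 639, 602 and 527 in 8-oxoguanine cells, against 393, 260.3 and 460.4 in mock cells. Every 8-oxoguanine array was above every mock array, and the second mock array was the lowest. The means were 589 ± 57.2 in 8-oxoguanine cells and 371 ± 102 in mock cells (SD, n = 3 each), a log2 fold change of 0.70 ± 0.19 (SE; adjusted p = 0.0364 by limma), with a 95% interval of 0.28 to 1.12. The call rested on all but 2 of the arrays: the adjusted p was 0.122, 0.105 and 0.0543 without 8-oxoguanine array 1, 2 or 3 and 0.0576 without mock array 1, while it was 0.0404 and 0.0184 without mock array 2 or 3. The log2 fold change was 0.47 without mock array 2, its lowest array, and 0.88 without mock array 3, its highest mock array. The adjusted p by limma was 0.0601 after median centring, 0.0748 without the filter and 0.0879 without the intensity trend. In each of these settings the log2 fold change was 0.69 or 0.70.

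NDUFA1, a small membrane-arm subunit needed for assembly of the complex, had the next highest log2 fold change, from signals of 2042, 2254 and 1978 in 8-oxoguanine cells, against 1689.5, 1322 and 1917 in mock cells. The groups did not overlap, and its log2 fold change of 0.36 ± 0.12 (SE; adjusted p = 0.0848 by limma) missed the threshold. The second mock array was again the lowest. Without mock array 2 the log2 fold change was 0.21, and without mock array 3 it was 0.48 and passed (adjusted p = 0.0361).

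Other complex I genes lay on the lower side, none of them past the threshold. NDUFA7, an accessory subunit of the matrix arm, had a signal of 483, 456 and 460.0 in 8-oxoguanine cells, against 542, 636 and 557 in mock cells, and NDUFA7 arrays of the 2 groups did not overlap. Its log2 fold change was -0.31 ± 0.10 (SE; adjusted p = 0.0623 by limma). NDUFA6, which docks the mitochondrial acyl carrier protein on the matrix arm, had 1313, 1283 and 1154 in 8-oxoguanine cells, against 1429, 1514 and 1555 in mock cells, again without overlap, and a log2 fold change of -0.26 ± 0.08 (SE; adjusted p = 0.0529 by limma). NDUFS1, the largest iron-sulphur core subunit, had 636, 649.5 and 668 in 8-oxoguanine cells, against 805, 711 and 803 in mock cells, with a log2 fold change of -0.25 ± 0.09 (SE; adjusted p = 0.0886 by limma). NDUFA6 and NDUFS1 were picked out after their values were seen. NDUFA6 passed after quantile normalization (adjusted p = 0.0485) and with a stricter filter (0.0397), and NDUFS1 without mock array 2 (0.0433).

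Over the 26 complex I subunits, 7 had a log2 fold change above 0 and 19 below, with a median of -0.08. Of the 4670 named genes tested, 2381 lay above 0 and 2289 below. Apart from the 5 genes above, the subunits lay between -0.22 and 0.14. The 3 non-overlapping genes on the higher side (11.5%) were NDUFA5, NDUFA1 and NDUFS4, against 17.2% of the named genes. On the lower side 7 genes did not overlap (26.9%), against 16.6% of the named genes. The core subunits on the arrays were within 1.2-fold: NDUFV1, which binds NADH and flavin, had -0.08, NDUFV2 -0.11, NDUFS3 -0.08 and NDUFS1 -0.25. NDUFAB1, the acyl carrier protein itself, had -0.14. NDUFV1, NDUFV2, NDUFS3, NDUFS4 and NDUFAB1 were chosen for their roles after their values were seen.

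**Figure D3:**
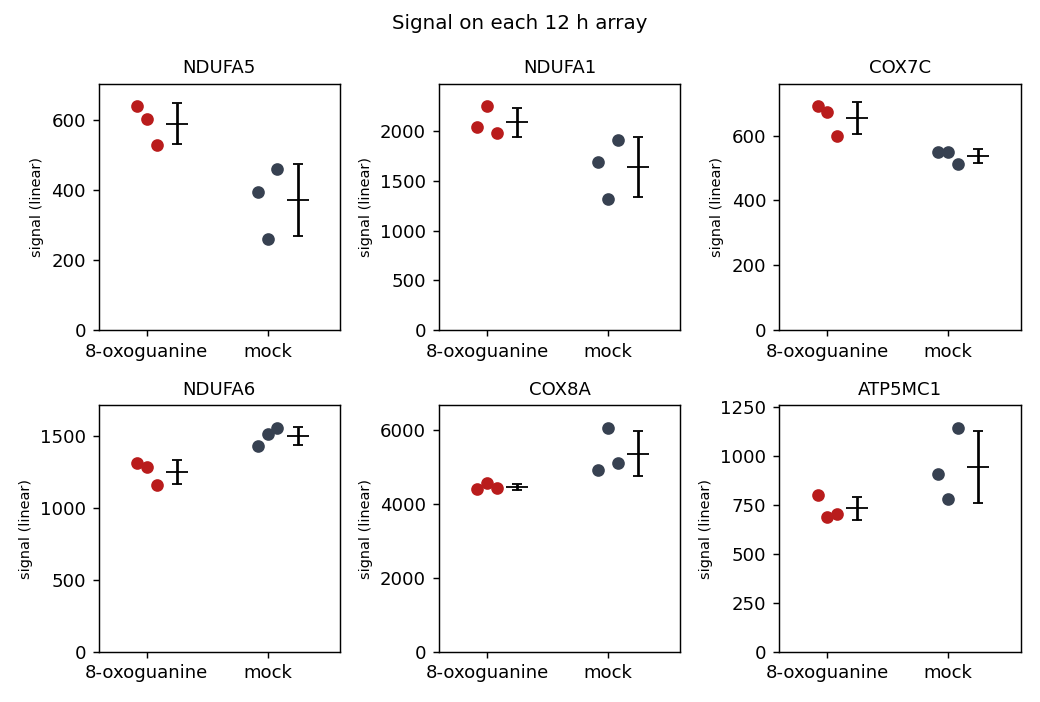
Signal (linear scale) on each 12 h array for NDUFA5, NDUFA1, COX7C, NDUFA6, COX8A and ATP5MC1; points are arrays, and bars beside them give the mean and SD of 3 arrays. The groups do not overlap in the first 5 panels, while in the ATP5MC1 panel the lowest mock array lies below the highest 8-oxoguanine array.

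Complex II, succinate dehydrogenase, was represented at 12 h by its membrane anchors SDHC and SDHD. SDHD had a signal of 652, 655 and 558 in 8-oxoguanine cells, against 610.2, 355 and 568 in mock cells, and the groups overlapped. Its log2 fold change of 0.32 ± 0.18 (SE; adjusted p = 0.293 by limma) was 0.07 without mock array 2, the array with the lowest value. SDHC had 633, 650.5 and 676 in 8-oxoguanine cells, against 637, 583 and 675 in mock cells, also overlapping, with a log2 fold change of 0.05 ± 0.09 (SE; adjusted p = 0.778 by limma). Limma called neither gene, and neither had an unadjusted p under 0.05. The SDHC probe set was the dimmest of 4 for that gene at 6 h.

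Complex III, the ubiquinol-cytochrome c reductase, had 2 genes above 0 and 5 below, with a median of -0.08. UQCRC1, a core protein of the matrix side, had a signal of 1722, 1749 and 1822 in 8-oxoguanine cells, against 1929, 2149.7 and 2047 in mock cells, with a log2 fold change of -0.21 ± 0.07 (SE; adjusted p = 0.0797 by limma). UQCR10, a small membrane subunit, had 4160.3, 4237 and 4109.6 in 8-oxoguanine cells, against 4651, 4934 and 4581 in mock cells, with a log2 fold change of -0.18 ± 0.06 (SE; adjusted p = 0.0962 by limma). For UQCRC1 and UQCR10 every 8-oxoguanine array was below every mock array, and the second mock array was the highest. UQCRB, a ubiquinone-binding subunit, had 279.6, 228 and 195 in 8-oxoguanine cells, against 193, 182 and 205 in mock cells. This probe set was the dimmest of 3 for UQCRB at 6 h. The UQCRB groups overlapped, with a log2 fold change of 0.26 ± 0.16 (SE; adjusted p = 0.329 by limma) that was 0.13 without 8-oxoguanine array 1. The other 4 genes of the complex, CYC1 among them, lay between -0.14 and 0.04. Limma called 0 of 7 genes of the complex, with 2 lower at an unadjusted p under 0.05 (28.6%). Among named genes 14% were lower at that threshold. The groups did not overlap for 3 of the 7 genes on the lower side (42.9%), against 16.6% of the named genes.

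Complex IV, cytochrome c oxidase, had 9 of 13 genes above 0 and a median of 0.05. COX7C had a signal of 691, 673 and 599 in 8-oxoguanine cells, against 549, 548 and 512 in mock cells, with no overlap, and a log2 fold change of 0.28 ± 0.09 (SE; adjusted p = 0.0692 by limma). It passed the test without 8-oxoguanine array 3 (adjusted p = 0.0466). Its probe set was the dimmest of 3 for COX7C at 6 h. COX8A had 4388, 4549 and 4419.6 in 8-oxoguanine cells, against 4896, 6051 and 5105 in mock cells, on the opposite side and also without overlap, with a log2 fold change of -0.26 ± 0.09 (SE; adjusted p = 0.0742 by limma). COX8A passed after median centring (adjusted p = 0.0438) and quantile normalization (0.0392), and its log2 fold change was -0.17 without mock array 2, its highest array. Both genes encode small membrane subunits of the complex. Apart from COX7C, COX8A and the isoform sets below, the other 6 genes of the complex (COX4I1, COX5A, COX5B, COX6B1, COX6C and COX7B) lay between -0.00067 and 0.12, with overlapping groups for each; these genes were listed after their values were seen. Limma called 0 of the 12 tested genes, with 1 higher and 1 lower at an unadjusted p under 0.05 (8.33% each). Among named genes 14.7% were higher and 14% lower at that threshold.

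Complex IV has paired subunit isoforms, one common to most tissues and one of heart and skeletal muscle. COX6A1, the common form, had 4833, 4945 and 5822 in 8-oxoguanine cells, against 5128, 5489.9 and 5557 in mock cells, with a log2 fold change of -0.06. COX6A2, the muscle form, had 134, 135 and 176 in 8-oxoguanine cells, against 136, 135 and 117 in mock cells, with a log2 fold change of 0.19 ± 0.19 (SE; adjusted p = 0.569 by limma) that was 0.06 without 8-oxoguanine array 3. The groups overlapped for both COX6A1 and COX6A2. COX7A2, the common form of another pair, had 2617, 2485 and 2314 in 8-oxoguanine cells, against 2623, 2764 and 2801 in mock cells, without overlap, and a log2 fold change of -0.14 ± 0.07 (SE; adjusted p = 0.222 by limma). COX7A1, its muscle form, had 13.8, 21.0 and 47.9 in 8-oxoguanine cells, against 12.6, 26.3 and 13.0 in mock cells, under the filter limit of 93.9, and was not tested. COX7A2L, a related protein that joins complexes III and IV, had a log2 fold change of 0.05, which was -0.05 without mock array 1 and -0.0040 without mock array 3. Of 3 muscle marker genes on the arrays, CKM and DES were under the filter, and the summed signal of the 3 was between 149 and 168 in 8-oxoguanine cells and between 128 and 288 in mock cells.

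ATP synthase had 8 of 14 genes above 0 and a median of 0.02. ATP5MC1 is 1 of 3 genes that encode the same mature c subunit of the rotor ring. Its signal was 798, 689 and 704 in 8-oxoguanine cells, against 905, 779 and 1142 in mock cells, and its log2 fold change of -0.35 ± 0.13 (SE; adjusted p = 0.112 by limma) was the lowest among the 60 genes tested. The groups overlapped, through the second mock array. Without that array the adjusted p was 0.0336 and the log2 fold change -0.48, and without mock array 3, the highest, the log2 fold change was -0.20. ATP5MC2, with 1855, 1922 and 1806 in 8-oxoguanine cells, against 1709, 1723 and 1671 in mock cells, stood higher without overlap at a log2 fold change of 0.13 ± 0.07 (SE; adjusted p = 0.231 by limma). ATP5MC3 had 2355, 2355 and 2237 in 8-oxoguanine cells, against 2773, 2766 and 2339.7 in mock cells, with overlap, and a log2 fold change of -0.18 ± 0.08 (SE; adjusted p = 0.186 by limma). The 3 c-subunit genes thus had values on both sides of 0, and none passed the test.

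ATP5IF1, the inhibitor of ATP hydrolysis by the enzyme, had 632, 634 and 610.5 in 8-oxoguanine cells, against 755, 676 and 769 in mock cells, without overlap, and a log2 fold change of -0.23 ± 0.09 (SE; adjusted p = 0.112 by limma). ATP5MG, a membrane subunit, had 251, 199.7 and 338 in 8-oxoguanine cells, against 279.8, 303 and 359 in mock cells, with a log2 fold change of -0.28 ± 0.19 (SE; adjusted p = 0.381 by limma), with overlapping groups. This value was -0.10 without 8-oxoguanine array 2 and -0.48 without 8-oxoguanine array 3. The ATP5MG probe set was the dimmest of 4 for that gene at 6 h. The main catalytic-head subunits were closer to 0 than ATP5IF1 and ATP5MG. ATP5F1A, the alpha subunit, had 0.03 with overlapping groups. ATP5F1B, the beta subunit, had -0.14 (adjusted p = 0.19 by limma), with every 8-oxoguanine array below every mock array. The remaining 6 tested genes lay between -0.15 and 0.13. ATP5F1A and ATP5F1B at 12 h were chosen for their role after their values were seen. The probe set of ATP5F1C, the gamma subunit, had 136, 73.0 and 104 in 8-oxoguanine cells, against 97.2, 66.7 and 23.8 in mock cells. It was not tested, its mean lying under the filter, and it was the dimmest of 4 for ATP5F1C at 6 h. Limma called 0 of 13 tested genes of the enzyme, with 2 lower at an unadjusted p under 0.05 (15.4%). Among named genes 14% were lower at that threshold.

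The second mock array took part in several of these values. It was the lowest of the 6 arrays for NDUFA5, NDUFA1 and SDHD and the highest for NDUFA7, COX8A, UQCRC1 and UQCR10. Its median deviation from each gene's mean over the 6 arrays was -0.00087 over all 62 genes on the log2 scale, -0.39 over complex II and 0.14 over complex III. Without this array 3 respiratory chain genes were called at 12 h (NDUFA5, NDUFS1 and ATP5MC1). Leaving out any 1 array gave between 0 and 3.

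Genes of the surrounding machinery were counted at 12 h from lists by function. Of the 4670 named genes tested, 13.1% were called, 6.49% as higher and 6.64% as lower. Above 0 lay 2381 of these named genes and below 0 lay 2289. Of 11 tested genes of pyruvate dehydrogenase and the tricarboxylic acid cycle, 10 had a log2 fold change below 0. The median was -0.14, and 3 were lower at an unadjusted p under 0.05 (27.3%), against 14% of the named genes. By the adjusted p of limma, 1 fell (9.09%). That gene was SUCLG1, the alpha subunit of succinyl-CoA synthetase, with 1234, 1300.4 and 1194 in 8-oxoguanine cells, against 1569, 1539.7 and 1534 in mock cells, with a log2 fold change of -0.32 ± 0.07 (SE; adjusted p = 0.0155 by limma). Of 14 electron and nucleotide carrier genes, 10 were below 0 with a median of -0.12, and 1 fell (7.14%). At an unadjusted p under 0.05, 6 carriers were lower (42.9%) and 1 higher (7.14%), against 14% and 14.7% of the named genes. The groups did not overlap for 7 carriers on the lower side (50%) and 1 on the higher (7.14%). For named genes these shares were 16.6% and 17.2%. SLC25A4, the ADP/ATP carrier of heart and muscle, fell with 355, 366 and 395 in 8-oxoguanine cells, against 475, 547 and 494 in mock cells. Its log2 fold change was -0.44 ± 0.10 (SE), with an adjusted p of 0.02 by limma. SLC25A5, another ADP/ATP carrier, had a mean of 4986 in 8-oxoguanine cells and 4960 in mock cells. Its log2 fold change was 0.01 (adjusted p = 0.946 by limma). CYCS, cytochrome c itself, had -0.15 (adjusted p = 0.253 by limma). SLC25A5 and CYCS were named for their roles after their values were seen. The 8 tested assembly factors of the chain had no call by limma, and 6 lay above 0 and 2 below. At an unadjusted p under 0.05, 1 was higher (12.5%), against 14.7% of the named genes. The median over all 9 assembly factors on the arrays was 0.21.

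Of 9 tested nuclear regulators, 1 rose (11.1%), against 6.49% of the named genes called higher and 13.1% called in either direction. Above 0 lay 7 of the 9 and below 0 lay 2, and the median over all 13 regulators on the arrays was 0.11. GABPB1, the beta subunit of GABP, had 658, 539 and 572 in 8-oxoguanine cells, against 363, 328 and 422 in mock cells, and its log2 fold change was 0.67 ± 0.12 (SE; adjusted p = 0.00697 by limma). NRF1 had -0.10 (adjusted p = 0.761) and TFAM, which packages mitochondrial DNA, 0.06 (adjusted p = 0.766). GABPA, the alpha subunit of GABP, was under the filter and was not tested. GABPA, NRF1 and TFAM were named after their values were seen. The 13 respiratory chain genes on the 12 h arrays with an ETS match had a median log2 fold change of -0.06, and the 40 with windows but no match had -0.02. For the NRF1 motif the medians were 0.01 with a match (16 genes) and -0.04 without (37 genes).

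Among 14 tested genes of mitochondrial protein import, 3 were called (21.4%), against 13.1% of the named genes. TIMM17A, an inner membrane channel subunit, fell with 1184, 1296 and 1141 in 8-oxoguanine cells, against 1495, 1541 and 1537 in mock cells. Its log2 fold change was -0.34 ± 0.07 (SE), with an adjusted p of 0.0161 by limma. TOMM20, an outer membrane receptor, rose with 2767, 2649.8 and 2639.9 in 8-oxoguanine cells, against 2303, 2137 and 2226 in mock cells, with a log2 fold change of 0.27 ± 0.07 (SE; adjusted p = 0.0235 by limma). HSPA9, the matrix chaperone that pulls proteins in, rose as well, by 0.30 (limma adjusted p = 0.0239). Of 8 tested hypoxia-linked genes, 1 was called (12.5%). BNIP3, an outer membrane protein of mitophagy, fell with 2029.9, 1957 and 1889 in 8-oxoguanine cells, against 3431, 3666 and 3454 in mock cells. Its log2 fold change was -0.84 ± 0.07 (SE), with an adjusted p of 8.5e-05 by limma. Of 16 tested mitochondrial ribosomal protein genes 2 fell (12.5%), against 6.64% of the named genes. MRPL17 fell by 0.53 and MRPS12 by 0.30 on the log2 scale, and the median of the 16 was -0.09.

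The fibroblast label was checked against marker genes at 12 h. All 10 fibroblast markers on the arrays passed the filter, and their summed signal was between 63634 and 77966 in 8-oxoguanine cells and between 64168 and 77590 in mock cells. Within the list LUM (log2 fold change 1.07), PDGFRA (0.36) and PDGFRB (0.30) rose and S100A4 (-0.58) fell. Of 5 epithelial markers, EPCAM and CDH1 were under the filter and KRT8, KRT18 and KRT19 passed it. KRT18, a keratin, made up most of the list's summed signal, with 3876, 3845 and 4107 in 8-oxoguanine cells, against 3553, 3579 and 3786 in mock cells. PTPRC, which marks blood cells, was under the filter. Of 4 endothelial and 4 blood markers on the arrays, PECAM1, CD3E and HBB passed the filter and limma called none of the 3, none of them at an unadjusted p under 0.05. KRT19 fell by 1.27 on the log2 scale, while the summed signal of the 5 epithelial markers was between 4127 and 4433 in 8-oxoguanine cells and between 3990.3 and 4198 in mock cells.

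At 6 h there was 1 array of each treatment, so differences are log2 ratios of 2 arrays with no test. The median ratio over the 74 genes was 0.10, against -0.03 over all named genes, and 49 lay above 0 and 25 below. One gene, ATP5F1B, was more than 1.5-fold from equal among the 68 genes above the filter at 6 h, against 7.41% of the named genes above it. The ratios of this pair of arrays moved with signal for genes of every kind. Respiratory chain genes with a signal of 4000 or more had a median ratio of 0.29 (16 genes), against 0.41 over named genes, and those below 500 had -0.15 (8 genes), against -0.08. Between 1000 and 2000 the respiratory chain median was 0.14 (18 genes), against -0.02 over named genes. It was 0.07 (23 genes) against 0.07 between 2000 and 4000, and -0.00063 (9 genes) against -0.05 between 500 and 1000. After quantile normalization, which gives both arrays the same distribution, the median of the 16 bright genes was 0.01, equal to 2 decimals to that of the named genes, while that of the 18 genes between 1000 and 2000 was 0.20, against 0.03. The median over all 74 was 0.08 after quantile normalization, against 0.03 over named genes, and 0.22 after median centring, against 0.08.

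**Figure D4:**
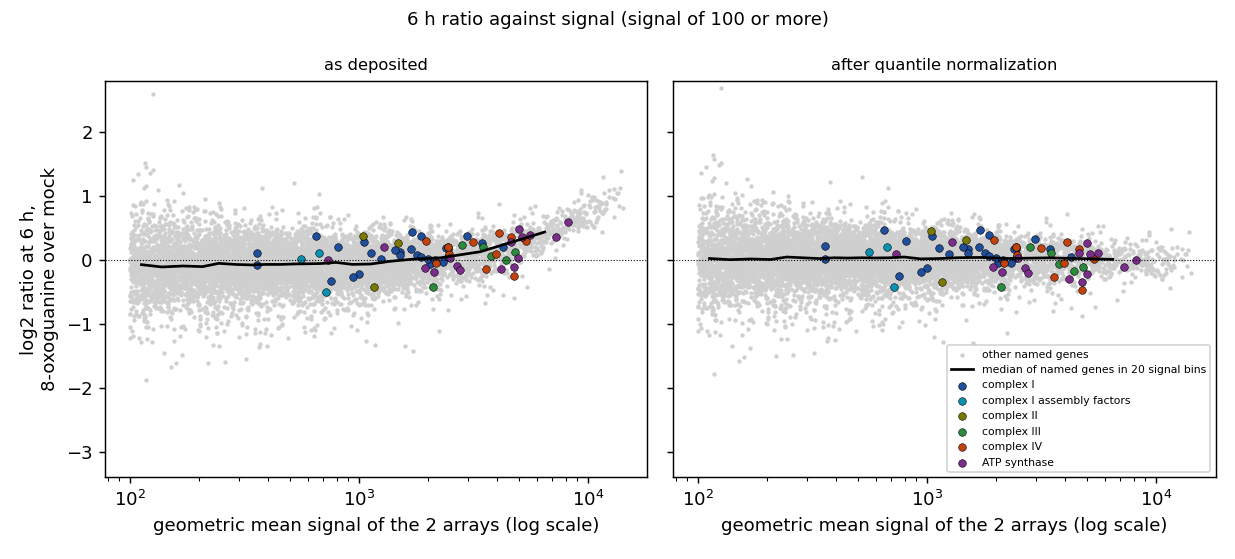
Log2 ratio at 6 h, 8-oxoguanine over mock array, against the geometric mean signal of the 2 arrays (log scale), as deposited on the left and after quantile normalization on the right, for named genes with a signal of 100 or more; the line is the median of named genes in 20 bins of signal. As deposited, the ratios climb with signal and ATP5F1B stands at 0.59; after quantile normalization ATP5F1B stands at 0.00.

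Within ATP synthase the largest 6 h ratio was that of ATP5F1B, the catalytic beta subunit, which read 10088 in the 8-oxoguanine array and 6696 in the mock array. Its log2 ratio of 0.59 became 0.00 after quantile normalization. ATP5MG read 5927 in the 8-oxoguanine array and 4245 in the mock array, a ratio of 0.48 that was 0.26 after quantile normalization. The lowest were ATP5ME, a membrane subunit, at -0.19 and ATP5PF, of the peripheral stalk, at -0.16. A second ATP5ME probe set above the filter had 0.74, and the mean of both was 0.28, on the other side of 0. The mean of the 4 ATP5MG probe sets was 0.08. The ATP synthase median was 0.03 as deposited and -0.06 after quantile normalization, so its sign depended on the scaling.

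Complex I had 21 of 28 ratios above 0 at 6 h, with a median of 0.11 as deposited and 0.14 after quantile normalization. NDUFV1 read 1974 in the 8-oxoguanine array and 1460.2 in the mock array, a ratio of 0.43, and NDUFB2, a membrane-arm subunit, read 3379.7 in the 8-oxoguanine array and 2602 in the mock array, a ratio of 0.38. A second NDUFB2 probe set above the filter had -0.17, and the mean of both was 0.11. The lowest were NDUFB11, another membrane-arm subunit, at -0.33 and NDUFS1 at -0.26. NDUFS1 was thus below its mock array at 6 h and below its mock mean at 12 h. Of the 5 assembly factors, NDUFAF5 and NDUFAF7 were under the filter. NDUFAF4 read 606 in the 8-oxoguanine array and 859.8 in the mock array, a ratio of -0.50, the lowest among the 68 genes above the filter. NDUFAF3, its partner in assembling the quinone-binding module, had 0.11, and NDUFAF1 had 0.02.

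Complex II had 3 genes on the 6 h arrays. SDHA, the flavin-carrying catalytic subunit, read 1179.6 in the 8-oxoguanine array and 913 in the mock array, a ratio of 0.37. SDHC had 0.26 through its brightest probe set and 0.04 as the mean of its 4. SDHD read 1010.5 in the 8-oxoguanine array and 1352 in the mock array, a ratio of -0.42, and the mean with its dim second probe set, which is under the filter, was 0.03. In complex III the highest were UQCRC1 at 0.24 and CYC1, cytochrome c1, at 0.20. UQCRC2, the other core protein, read 1809.6 in the 8-oxoguanine array and 2436 in the mock array, a ratio of -0.43 that was -0.43 after quantile normalization. UQCR10 read 4377 in the 8-oxoguanine array and 4377 in the mock array. The complex III median was 0.12 as deposited and -0.06 after quantile normalization.

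In complex IV the highest ratios at 6 h were those of COX6A1, which read 4767 in the 8-oxoguanine array and 3545 in the mock array, at 0.43, and of COX8A at 0.36. The lowest were COX6C, which read 4348 in the 8-oxoguanine array and 5159.8 in the mock array, at -0.25, and COX5A at -0.15. After quantile normalization COX6A1 had 0.29 and COX6C -0.48. The muscle forms COX6A2 and COX7A1 were under the 6 h filter, with COX6A2 at 77.9 in the 8-oxoguanine array and 91.2 in the mock array and COX7A1 at 20.3 in the 8-oxoguanine array and 27 in the mock array. The complex IV median was 0.10 as deposited and 0.02 after quantile normalization.

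Different probe sets of the same gene can be compared at 6 h, where 21 of the genes had more than 1. For 6 of these the log2 ratios spanned more than 1: ATP5MC2, NDUFA5, COX5B, NDUFA2, COX4I1 and ATP5MG. In all but ATP5MG the span came from a probe set under the filter. ATP5MG had 4 probe sets above the filter, with a ratio of -0.86 for 1 of them and between 0.30 and 0.48 for the others. The probe set at -0.86 is the one through which ATP5MG was read at 12 h. It was the dimmest of the 4, with a 6 h signal of 475, against 5016 for the brightest. UQCRB, COX7C, SDHC and ATP5F1C were likewise read at 12 h through the probe set that was their dimmest at 6 h. These probe sets had 6 h signals of 199, 809, 879 and 136, against 3783, 3990, 1488 and 4767 for the brightest. Their 6 h ratios were -0.41, 0.04, -0.12 and -0.12, against 0.07, 0.10, 0.26 and -0.11 for the brightest. COX4I1 was also read at 12 h through a probe set that was not its brightest at 6 h.

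The same probe sets can be followed across both times, although array type and array number differ between them. Of the 60 genes tested at 12 h, 23 had the same sign at both times (38.3%), against 46.5% of 4670 named genes. Across these 60 genes Pearson's r between the 6 h ratio and the 12 h log2 fold change was -0.25 and Spearman's rho -0.26, against -0.08 and -0.10 over named genes. Genes are not independent replicates, and the coefficients describe these arrays only. NDUFA5, higher at 12 h, read 926 in the 8-oxoguanine array and 1076 in the mock array at 6 h, a ratio of -0.22. COX8A, with all 12 h arrays of 8-oxoguanine cells below those of mock cells, read 5252 in the 8-oxoguanine array and 4085 in the mock array at 6 h.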

How the data were processed

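Biotin-labelled RNA of MRC5 cells was read on single-colour short-oligonucleotide arrays, of the HG-Focus type at 12 h and of a larger type at 6 h. Samples were grouped by their treatment and time labels. The time label and description give 12 h for 6 of the arrays although the treatment protocol names 6 h for all 8, and these arrays were taken as 12 h. Per the submitters' processing notes, the deposited intensity of each probe set, on a linear scale, came from MAS5, whose version is not given in the sources used here. Trimmed means of the arrays lay between 500.11 and 500.54, which is a shared scaling target.

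Log2 of the deposited intensity was taken with no further scaling, and control probe sets were left out. Probe sets with a mean log2 under the 40th percentile at 12 h (a signal of 93.9) were not tested, which kept 5248 of 8746, and the 50th percentile was used at 6 h. A gene was read through its brightest probe set. Symbols came from the platform annotation and were left as they were by comparison with RefSeq GRCh38.p14. Arrays at 12 h were fitted in limma 3.58.1 under R 4.3.3 (lmFit, eBayes with an intensity trend, two-sided, Benjamini-Hochberg over all 5248 probe sets, threshold 0.05). At 6 h no test was made. The fit was tested on simulated data. The number of arrays limits the precision.

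Genes were named by rule: at 12 h every gene called and the 3 largest absolute changes in each complex; at 6 h the 2 highest and 2 lowest ratios per group above the filter; paralogue sets; genes whose probe sets disagree; and called genes of each comparison list. Exceptions are stated in the text. The genes, lists and rules were chosen with earlier results of these data known.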

Additional observations from a re-analysis of the deposited data

Results flagged for a closer look

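For 9 of the genes tested at 12 h, the 6 h ratio and the 12 h log2 fold change of the same probe set lay on opposite sides of 0 as deposited, after median centring and after quantile normalization, while the 12 h groups did not overlap. Of the 60 genes tested, the 12 h groups did not overlap for 5 on the higher side (8.33%) and 14 on the lower (23.3%). For named genes these shares were 17.2% and 16.6%. The count matching the 9 was not made over all named genes, so the 9 cannot be set against a background share. At both times, 46.5% of 4670 named genes had the same sign, against 38.3% of the 60. The differences between the times were not tested, and array type, time and number of arrays change together between them. The largest gap was that of NDUFA5, at -0.22 at 6 h and 0.70 at 12 h. COX8A had 0.36 at 6 h and -0.26 at 12 h, and UQCRC1 had 0.24 at 6 h and -0.21 at 12 h. COX7A2 had 0.28 at 6 h and -0.14 at 12 h. CYC1 had 0.20 at 6 h and -0.14 at 12 h. NDUFB3 had 0.11 at 6 h and -0.19 at 12 h, and NDUFS3 had 0.082 at 6 h and -0.075 at 12 h. NDUFA7 had 0.11 at 6 h and -0.31 at 12 h. NDUFA6 had 0.012 at 6 h, close to equal, and -0.26 at 12 h.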

How the results depend on the processing

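The count of respiratory chain genes called at 12 h moved with the processing. It was 1 as reported, 1 after median centring (COX8A, with NDUFA5 lost), 3 after quantile normalization (COX8A, NDUFA5 and NDUFA6), 0 without the filter, 2 with a stricter filter (NDUFA5 and NDUFA6), 0 without the intensity trend, and 1 with a constant of 28.9 added before log2. Of these calls, 0 were higher and 1 lower after median centring, 1 higher and 2 lower after quantile normalization, and 1 higher and 1 lower with the stricter filter. Leaving out each 12 h array in turn gave 0 to 3 calls, 0 to 2 of them higher and 0 to 2 lower. The median log2 fold change of all 62 genes then lay between -0.037 and 0.0022. Of the 20 genes named by rule at 12 h, 2 changed sign in some setting: COX7A2L, between -0.054 and 0.22 (-0.0040 without mock array 3), and SDHC, between -0.0071 and 0.099, both when single arrays were left out. The cause of these changes was not tested.

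The 6 h median of 0.10 was 0.22 after median centring and 0.082 after quantile normalization. With the replicate number as a block, the 12 h test called 1 respiratory chain gene, NDUFA5. Arrays of the same number did not deviate together (correlations of 0.076, -0.149 and -0.05 over probe sets), so the numbers were not taken to pair the extracts. At 6 h, 1 array a treatment gives no measure of error. Dim probe sets limit what can be said of the muscle isoforms COX7A1 and COX6A2, of ATP5F1C at 12 h, and of NDUFAF5 and NDUFAF7 at 6 h.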
